A study of Mus musculus with 18 samples.

Results

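The comparison described here is the difference between soleus and extensor digitorum longus (EDL) in how each muscle of flown mice differed from that of facility-housed mice. It was drawn from the 12 arrays whose titles start with BF or FC, of 18 in the series, with 3 arrays in each of 6 groups. BF (Bion Flown) were male C57/BL6 mice kept for 30 days aboard the Bion M1 biosatellite, fed paste food and transported after landing before dissection. FC (Flight Control) were male C57/BL6 mice kept for the same 30 days in standard cages of the animal facility and fed standard chow. Flight, small habitat, food and the return journey all go with BF against FC and cannot be told apart. A further set, BG (Bion Ground), were mice of the same strain, sex and duration kept on the ground in a replicate flight habitat with paste food. BG entered only the estimate of the spread, except where named. The descriptions of BF EDL replicates 2 and 3 name a Bion M2 and a Bion M3, which was read as a slip because their source field names Bion M1. The labels do not say whether the soleus and the EDL of one number came from one mouse, so p-values measure the spread between the 3 muscles of a group.

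Soleus is a postural calf muscle rich in slow fibres, which burn fatty acids in mitochondria and carry slow isoforms of myosin, troponin and the calcium pump. EDL, in the front of the lower leg, extends the toes and is made almost entirely of fast fibres, which draw on glycogen and clear calcium quickly with the help of parvalbumin. Fibre type follows use: muscles that lose load tend to shift towards the fast programme, and soleus is loaded in standing while EDL is not.

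The interaction of a gene was the soleus change (BF minus FC) minus the EDL change (BF minus FC), in log2 units of RMA signal, so that a positive value means a more positive change in soleus. A gene was called when its adjusted p in limma was under 0.05 and its interaction exceeded a 2-fold difference. A gene moved alike when both muscles changed in the same direction at an adjusted p under 0.05 and the 95% interval of the interaction lay inside a 2-fold difference. Arrays of one group correlated at 0.978 to 0.995 over all probe sets. The muscle labels held: in FC arrays all 8 slow-fibre markers were higher in soleus and all 9 fast-fibre markers were higher in EDL, without overlap. These are bulk muscles, in which fewer cells of a type and less RNA per cell cannot be told apart.

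Of 12393 genes, 169 were called in the interaction: 84 higher in soleus (0.678% of the genes tested) and 85 lower in soleus (0.686%). At any fold, 106 genes were higher (0.855%) and 147 lower (1.19%). Most of the called genes passed the 2-fold threshold in soleus alone. Some of these also changed in EDL by less than 2-fold, such as Fzd9 (-0.72, adjusted p = 0.00993) and Nup210 (-0.75, adjusted p = 0.0189). Among the 84, 51 passed the 2-fold threshold in soleus only, 5 in EDL only and 28 in neither muscle, and among the 85 the counts were 66, 3 and 15, with 1 gene, Sln, past it in both muscles in opposite directions. The component changes were unequal in number. In soleus 225 genes were higher (1.82%) and 255 lower (2.06%) in BF, and in EDL 30 were higher (0.242%) and 32 lower (0.258%). The median size of the BF to FC change was 0.23 in soleus and 0.14 in EDL on the log2 scale, and the BF and FC arrays did not overlap for 38.3% of genes in soleus and 23.9% in EDL. The interaction count was 99 without BF EDL replicate 1 and 339 without BF soleus replicate 3, and 95 of the 169 genes kept an adjusted p under 0.05 in all 12 fits that each left out 1 array.

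**Figure D1:**
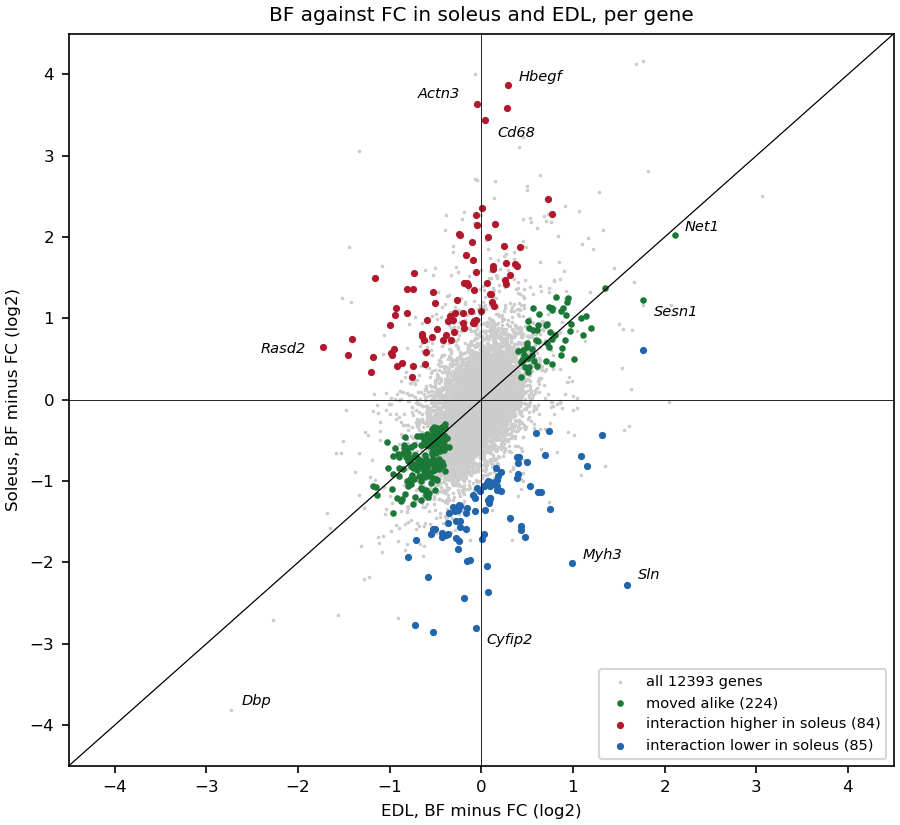
Each point is 1 of 12393 genes, placed by its BF minus FC change in EDL (horizontal axis, log2) and in soleus (vertical axis, log2), and the diagonal marks equal change. The 84 genes with a higher interaction in soleus and the 85 with a lower one lie above and below the diagonal, mostly near 0 in EDL, and the 224 genes that moved alike lie along it.

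The lowest interaction of the called genes was that of Sln, which encodes sarcolipin, a small membrane peptide that uncouples the calcium pump. Its log2 signal was 9.65, 10.45 and 9.12 in BF soleus, against 12.10, 11.55 and 12.42 in FC soleus. In EDL it was 8.51, 7.31 and 7.97 in BF, against 6.67, 6.14 and 6.2 in FC. The groups did not overlap in either muscle: Sln fell in BF soleus (-2.28 ± 0.41, SE) and rose in BF EDL (1.59 ± 0.41), giving an interaction of -3.88 ± 0.58 (limma, adjusted p = 0.00379). The distance between the muscles was thus 1.81 in BF and 5.69 in FC. The second probe set of Sln, dimmer, had an interaction of -1.20.

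Casq2, the calcium-binding calsequestrin of heart and slow muscle, was at 8.67, 9.39 and 8.66 in BF soleus, against 10.99, 10.79 and 11.05 in FC soleus. In EDL it was at 7.75, 8.02 and 7.97 in BF and 7.70, 7.90 and 7.95 in FC. All 3 BF soleus arrays lay between the FC soleus and the EDL arrays, and the EDL groups overlapped, with an interaction of -2.10 ± 0.25 (adjusted p = 0.000468). Pln, phospholamban, which brakes the slow calcium pump, was at 5.97, 6.25 and 6.15 in BF soleus, against 7.84, 8.13 and 7.48 in FC soleus, while BF EDL held 6.04, 6.12 and 6.38 and FC EDL 6.11, 5.72 and 5.26. BF soleus was thus within the range of EDL for Pln, and all 3 of its probe sets passed the test in the same direction (brightest: -2.17 ± 0.26, adjusted p = 0.000466). Of 21 measured genes for calcium handling, these and Homer2 were lower at an adjusted p under 0.05 and none was higher (3 to 4 lower when 1 array was left out). The median interaction of the list was 0.12, against -0.02 for all genes, and 12 of the 21 values were positive. For this and the lists below, the count over all 12393 genes was 5966 positive and 6427 negative. Of the same genes 0.855% had a higher and 1.19% a lower interaction at an adjusted p under 0.05.

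For reference, 250 bases before the start of some genes the results turn on are printed from RefSeq (GRCm38.p6), 5′ to 3′ on the gene's strand. Casq2 (chr3:102086165-102086414, plus strand), Pln (chr10:53337436-53337685, plus) and Myh3 (chr11:67078050-67078299, plus) are shown because they fell in BF soleus and not in BF EDL. Nr4a1 (chr15:101266596-101266845, plus) is shown because it changed in opposite directions. Net1 (chr13:3918221-3918470 and chr13:3893582-3893831, both minus) is shown with both of its annotated starts because its change was nearly equal in both muscles. Both strands were searched. Capitals mark the E-box core CANNTG, bound by myogenic factors, and the MEF2 motif in Casq2, Pln and Myh3, the sequence TGACG or its complement, a partial cyclic AMP element, in Nr4a1, and the clock E-box CACGTG, itself a form of CANNTG, in Net1.
Casq2: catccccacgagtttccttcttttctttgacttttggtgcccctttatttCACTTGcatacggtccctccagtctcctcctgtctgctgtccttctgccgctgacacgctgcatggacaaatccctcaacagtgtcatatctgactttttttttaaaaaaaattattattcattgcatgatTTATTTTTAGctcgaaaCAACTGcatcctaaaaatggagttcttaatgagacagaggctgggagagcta
Pln: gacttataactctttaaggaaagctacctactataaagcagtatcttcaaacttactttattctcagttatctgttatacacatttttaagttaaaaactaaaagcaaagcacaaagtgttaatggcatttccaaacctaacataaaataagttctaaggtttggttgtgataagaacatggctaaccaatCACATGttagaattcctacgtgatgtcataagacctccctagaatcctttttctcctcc
Myh3: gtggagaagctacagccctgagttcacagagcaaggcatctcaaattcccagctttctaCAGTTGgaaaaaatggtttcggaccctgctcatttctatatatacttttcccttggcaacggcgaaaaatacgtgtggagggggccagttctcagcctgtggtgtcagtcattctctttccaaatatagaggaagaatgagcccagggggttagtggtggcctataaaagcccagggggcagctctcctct
Nr4a1: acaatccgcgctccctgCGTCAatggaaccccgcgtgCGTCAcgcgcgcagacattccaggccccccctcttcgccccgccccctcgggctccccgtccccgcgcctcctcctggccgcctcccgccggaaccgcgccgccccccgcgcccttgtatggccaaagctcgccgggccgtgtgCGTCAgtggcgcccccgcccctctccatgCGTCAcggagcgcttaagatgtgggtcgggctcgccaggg
Net1, first: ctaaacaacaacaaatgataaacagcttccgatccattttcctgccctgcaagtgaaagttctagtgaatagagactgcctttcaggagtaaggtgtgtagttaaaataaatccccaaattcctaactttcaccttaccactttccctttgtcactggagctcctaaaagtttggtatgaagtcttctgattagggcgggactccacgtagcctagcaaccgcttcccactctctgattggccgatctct
Net1, second: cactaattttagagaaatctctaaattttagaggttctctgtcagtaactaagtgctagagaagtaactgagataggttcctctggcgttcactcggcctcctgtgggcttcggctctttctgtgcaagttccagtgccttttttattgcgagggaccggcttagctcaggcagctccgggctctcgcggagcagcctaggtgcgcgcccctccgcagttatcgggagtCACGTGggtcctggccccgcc

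The matches describe these windows only. CANNTG began 200 and 52 bases before the start of Casq2, 59 before that of Pln and 191 before that of Myh3. The MEF2 motif began 69 bases before the start of Casq2. In Nr4a1 the TGACG sequence occurred 4 times, at 233, 213, 69 and 40 bases before the start, and in Net1 CACGTG lay 21 bases before the second start. Net1 also held matches left unmarked: CANNTG at 239 and 201 bases before the first start, and the MEF2 motif 248 bases before the second. Pln and Myh3 held no MEF2 motif. Over 32841 such windows of 27018 mouse genes, 66.2% held CANNTG, 2.92% the MEF2 motif, 17.8% TGACG and 6.02% CACGTG.

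Of the fast-fibre genes, 3 diverged in the other direction. Actn3, the fast-fibre alpha-actinin that crosslinks thin filaments at the Z-disc, was at 13.68, 12.75 and 13.55 in BF soleus, against 8.69, 9.93 and 10.46 in FC soleus. In EDL it was at 13.76, 13.92 and 13.68 in BF and 13.73, 13.78 and 13.99 in FC. BF soleus had thus come to within 0.46 of BF EDL, whereas FC soleus lay 4.14 below FC EDL, and the interaction was 3.68 ± 0.71 (adjusted p = 0.013). Pvalb, parvalbumin, the calcium buffer of fast fibres, was at 14.03, 13.28 and 14.04 in BF soleus, against 11.13, 11.94 and 11.85 in FC soleus, with every EDL array between 13.95 and 14.20 (interaction 2.20 ± 0.41, adjusted p = 0.0108). The EDL values of both genes lie near the top of the signal scale. Myoz1, which ties calcineurin to the Z-disc of fast fibres, rose by 1.09 ± 0.14 in BF soleus and differed by 0.00 ± 0.14 in EDL (interaction adjusted p = 0.0117).

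These 3 were the fast contractile genes that passed the test, of 15 measured, against 0.855% of all genes with a higher interaction. Of the 15 interactions 14 were positive, with a median of 0.41. The 3 remained in number when any of the 12 arrays was left out. Myh4, the fast myosin IIb heavy chain, had the largest value of the list, 4.07 ± 1.12, but did not pass (adjusted p = 0.0744): BF soleus was at 13.96, 13.41 and 13.95, against 8.02, 10.96 and 10.32 in FC soleus, so the FC soleus arrays differed among themselves by more than most genes changed. Myh1, for myosin IIx, had an interaction of 0.20 ± 0.19 (adjusted p = 0.692). Its BF and FC arrays ran from 13.34 to 13.96, near the top of the signal scale. Whether this hid a change was not tested. The Myh1 probe set next in brightness had an interaction of 0.22. The dimmest, with a mean signal of 6.70, had changes of 1.04 in soleus and 0.225 in EDL. Its interaction of 0.81 did not pass (adjusted p = 0.224). Myh2, for myosin IIa, had an interaction of -1.19 ± 0.44 (adjusted p = 0.195), and the Myh2 value was -0.60 without FC EDL replicate 3. None of 11 slow contractile genes passed the test, although 10 of the 11 interactions were negative (median -0.66). Myh7, slow myosin, ran from 12.85 to 13.31 in BF soleus and from 13.87 to 13.93 in FC soleus. Its EDL arrays ran from 5.55 to 9.53 in BF and from 6.80 to 10.75 in FC, so its interaction of 0.50 had an SE of 1.34. Myh3, the embryonic myosin heavy chain, stands in neither list and passed the test: 6.91, 6.51 and 5.96 in BF soleus against 8.52, 8.48 and 8.39 in FC soleus, and 7.38, 6.76 and 6.69 in BF EDL against 6.45, 6.38 and 5.02 in FC EDL. Neither muscle's groups overlapped, and the interaction was -3.0 ± 0.46 (adjusted p = 0.00379).

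**Figure D2:**
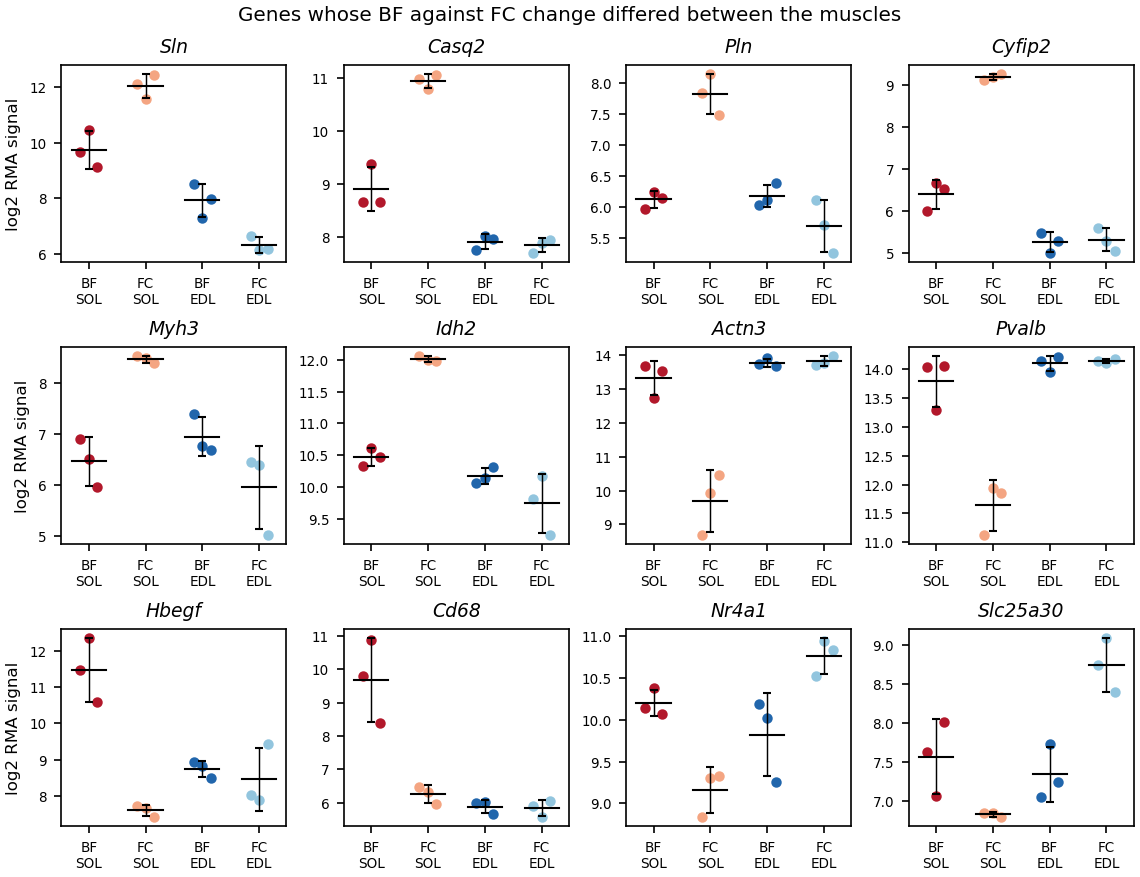
Log2 RMA signal of 12 genes in each of the 12 arrays (points), with the mean (line) and SD (bars) of the 3 arrays in BF and FC soleus (SOL) and BF and FC EDL. BF soleus lies nearer to EDL than FC soleus does for Casq2, Pln, Idh2, Actn3 and Pvalb, and above the other groups for Hbegf and Cd68.

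Of 30 measured genes for fatty acid uptake and oxidation, 6 had a lower interaction and none a higher one, 28 of the 30 values were negative and the median was -0.66. Over all 12393 genes, 6427 interactions were negative and 5966 positive, and 1.19% were lower and 0.855% higher at an adjusted p under 0.05. In soleus alone 17 of the 30 fell and 1 rose in BF, and in EDL 3 rose and none fell, at an adjusted p under 0.05. Over all genes at that threshold 16% fell and 9.02% rose in BF soleus, and 2.52% fell and 1.02% rose in BF EDL. The 6 were Fabp3, the fatty acid carrier of the cytosol, Cd36, which takes fatty acids up at the membrane, Cpt2, which passes them into mitochondria, and the beta-oxidation enzymes Acadvl, Hadh and Acaa2. The count was 3 without FC soleus replicate 3 or BF EDL replicate 1, and 12 without BF soleus replicate 3. Fabp3 was at 12.22, 12.32 and 12.66 in BF soleus, against 13.55, 13.42 and 13.55 in FC soleus, and at 12.54, 12.26 and 12.76 in BF EDL, against 12.56, 12.35 and 12.14 in FC EDL. Only in soleus did the groups separate, with an interaction of -1.28 ± 0.22 (adjusted p = 0.00676). Acaa2 had an interaction of -1.27 ± 0.24 and Cpt2 of -1.26 ± 0.26, and Cd36 moved by -0.39 in soleus and 0.74 in EDL (interaction -1.12, adjusted p = 0.0138). Cpt2 missed the threshold without FC soleus replicate 3 or BF EDL replicate 1 (adjusted p up to 0.0547).

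In the tricarboxylic acid cycle Idh2, the mitochondrial NADP-dependent isocitrate dehydrogenase, was the gene past the test of 23 measured, and 22 of the 23 interactions were negative (median -0.27). Idh2 was at 10.32, 10.62 and 10.47 in BF soleus, against 12.07, 11.996 and 11.99 in FC soleus, and at 10.07, 10.15 and 10.31 in BF EDL, against 9.81, 10.17 and 9.24 in FC EDL. BF soleus had left the FC soleus range by more than 1 log2 unit while the EDL groups overlapped (interaction -1.98 ± 0.23, adjusted p = 0.000466). For the respiratory chain and ATP synthase 41 of 44 interactions were negative with a median of -0.19, and Ndufv1, a complex I subunit, passed (-0.62 ± 0.14, adjusted p = 0.0249, lost in 5 of the 12 fits without 1 array). The median change of this list was -0.24 in soleus and -0.02 in EDL. Over all genes 1.19% had a lower interaction at an adjusted p under 0.05, so 1 gene past the test says little about either list. Ppara, the nuclear receptor that switches on fatty acid oxidation, fell by 2.18 in BF soleus and had a value of -0.58 in EDL, and its interaction of -1.60 ± 0.39 was close to the threshold (adjusted p = 0.0444, kept in 3 of 12 fits without 1 array).

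For glycolysis and glycogen 19 of 25 interactions were positive, with a median of 0.36, and in soleus 7 of the 25 rose and 4 fell in BF, against 9.02% and 16% of all genes. Gpd1, cytosolic glycerol-3-phosphate dehydrogenase, Adpgk, an ADP-dependent glucokinase, and Phkg1, the catalytic subunit of muscle phosphorylase kinase, passed the test. Over all genes 0.855% passed with a higher interaction. The dimmer probe set of Adpgk did not pass (0.997, adjusted p = 0.119). For Gpd1 the probe set next in brightness passed (1.12, adjusted p = 0.0209), and the dimmer ones did not (0.06 and 0.05). Phkg1 was at 9.45, 8.06 and 9.31 in BF soleus, against 7.43, 7.43 and 7.65 in FC soleus, and between 10.12 and 10.47 in every EDL array. BF soleus replicate 2 was the lowest of its group here, as it was for Actn3, Pvalb and Gpd1. The list's count of 3 was 1 without FC soleus replicate 1 or 2, BF EDL replicate 1 or FC EDL replicate 3, and 11 without BF soleus replicate 2.

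**Figure D3:**
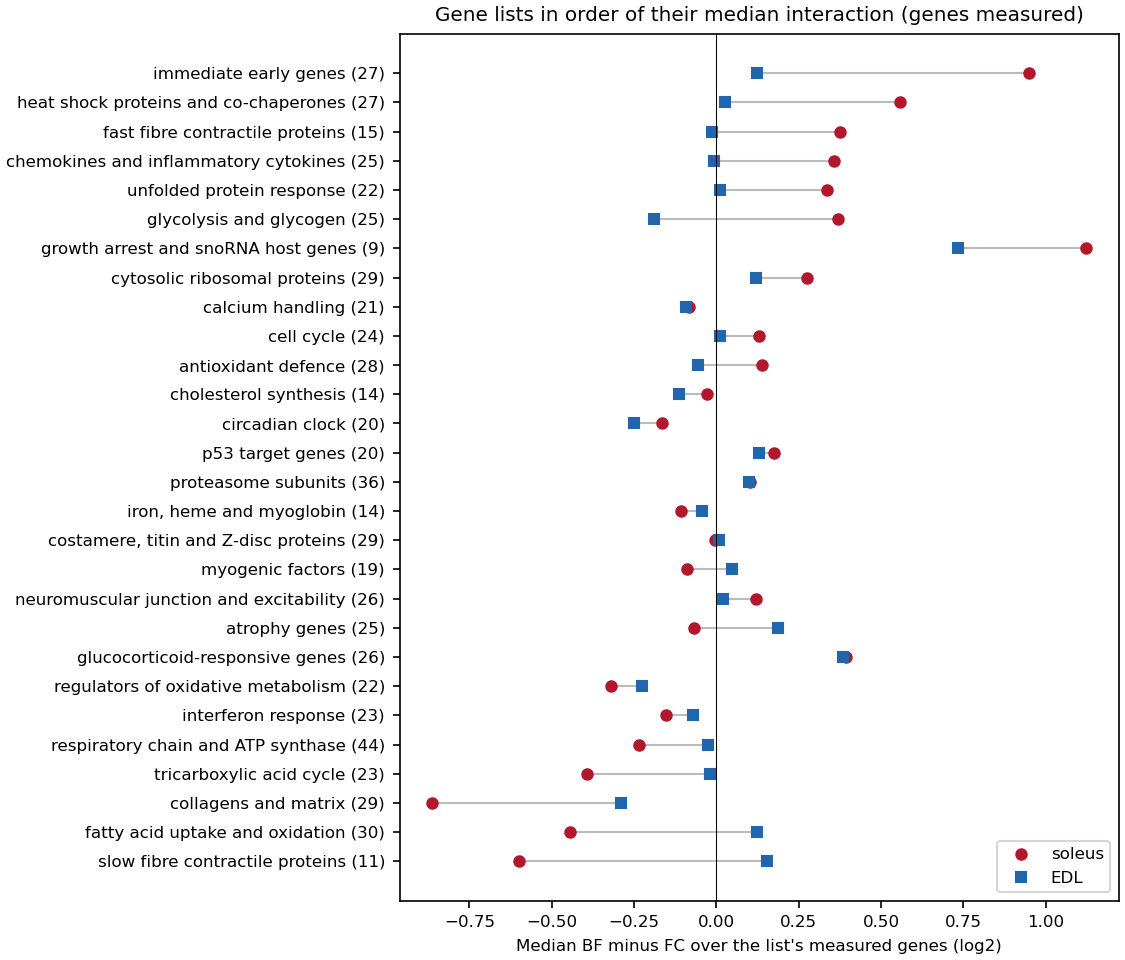
Median BF minus FC change (log2) over the measured genes of 28 lists, whose sizes stand in parentheses, in soleus (circles) and EDL (squares), with the lists in order of the median interaction. Immediate early genes (0.95 in soleus, 0.12 in EDL) stand at the top and slow contractile proteins (-0.60 in soleus, 0.16 in EDL) at the bottom, and the medians of the glucocorticoid-responsive genes nearly coincide (0.39 in soleus, 0.38 in EDL).

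Immediate early genes, the first transcripts switched on by a stimulus, had the highest median interaction of the lists shown (0.81; 0.95 in soleus, 0.12 in EDL), and 23 of 27 values were positive. In BF soleus 18 of the 27 rose and 1 fell, and in BF EDL none rose and 1 fell, while over all genes 9.02% rose and 16% fell in BF soleus, and 1.02% rose and 2.52% fell in BF EDL. Myc, Nr4a1, Fosl1 and Klf6 passed the test, against 0.855% of all genes with a higher interaction. Fosl1 passed narrowly (adjusted p = 0.0407, kept in 2 of 12 fits without 1 array), and its dimmer probe set did not pass (0.86, adjusted p = 0.125). Myc, a transcription factor for growth, was at 8.34, 9.01 and 6.89 in BF soleus, against 5.71, 5.76 and 5.70 in FC soleus, and between 5.97 and 6.19 in every EDL array. All 3 BF soleus arrays were above the other 9, and they were spread over more than 2 log2 units, so the interaction of 2.35 ± 0.49 (adjusted p = 0.0203) was lost without BF soleus replicate 1, FC soleus replicate 2 or 3, or FC EDL replicate 1 (adjusted p up to 0.0528). Egr1 and Fos had values of 2.78 ± 0.87 and 2.13 ± 0.70 and did not pass. The list's count of 4 was 1 without any of BF soleus replicate 1, FC soleus replicate 2 or 3 and FC EDL replicate 1, 2 without FC soleus replicate 1, BF EDL replicate 1 or 3 or FC EDL replicate 2, and 11 without BF soleus replicate 3.

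Hbegf, a growth factor that binds the EGF receptor, was at 11.47, 12.36 and 10.59 in BF soleus, against 7.72, 7.67 and 7.42 in FC soleus. In EDL it was at 8.93, 8.81 and 8.50 in BF and 8.03, 7.89 and 9.44 in FC. BF soleus stood above all other arrays, and both probe sets passed (brighter: interaction 3.58 ± 0.68, adjusted p = 0.0124). Gm13889, a predicted gene, had 10.79, 11.27 and 8.91 in BF soleus and at most 7.21 in the other 9 BF and FC arrays (interaction 3.30 ± 0.61, adjusted p = 0.0113). Its dimmer probe set did not pass (0.24, adjusted p = 0.654). Dusp10, a phosphatase of stress kinases, and Azin1, which frees ornithine decarboxylase from its inhibitor, had interactions of 2.33 ± 0.46 and 2.29 ± 0.41. Hspb8, a small heat shock protein that works with Bag3 in clearing damaged filament proteins, rose by 1.58 ± 0.21 in BF soleus with -0.06 ± 0.21 in EDL, and all 3 of its probe sets passed. It was the member past the test among 27 heat shock proteins and co-chaperones, of which 23 had positive interactions (median 0.55). Over all genes 0.855% had a higher interaction at an adjusted p under 0.05. Vcl and Pdlim3, of the costamere and Z-disc, had interactions of 1.03 ± 0.22 and 1.48 ± 0.27.

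Cd68, a lysosomal glycoprotein used as a macrophage marker, was at 9.80, 10.90 and 8.38 in BF soleus, against 6.48, 6.33 and 5.95 in FC soleus, and between 5.57 and 6.05 in every EDL array (interaction 3.40 ± 0.56, adjusted p = 0.00583). It was the only one of 20 measured macrophage markers past the test. The mean signal of the 20 ran from 6.97 to 7.58 in BF soleus and from 6.97 to 7.14 in FC soleus, and 10 of the 20 interactions were positive. BF soleus replicate 2 was the highest and replicate 3 the lowest of the BF soleus arrays for Cd68, Hbegf, Gm13889 and Myc. Marker levels of other cells also differed in soleus without overlap. The mean signal of 12 adipocyte markers was 9.31 to 9.97 in BF soleus and 8.86 to 8.89 in FC soleus, that of 16 endothelial markers 7.5 to 7.73 in BF soleus and 8.11 to 8.24 in FC soleus, and that of 12 fibroblast markers 8.55 to 9.0 in BF soleus and 9.50 to 9.72 in FC soleus. Schwann cell markers (9) were at 7.82 to 8.27 in BF soleus and 7.25 to 7.55 in FC soleus, and satellite cell markers (10) at 6.15 to 6.36 in BF soleus and 6.53 to 6.54 in FC soleus. In EDL, neutrophil markers (12) separated, at 5.30 to 5.61 in BF and 4.67 to 4.82 in FC, as they did in soleus, at 5.07 to 5.22 in BF and 4.63 to 4.75 in FC. Epidermal and epithelial markers (20) also separated in EDL, at 4.52 to 4.74 in BF and 4.75 to 5.32 in FC, overlapped in soleus, at 4.81 to 5.74 in BF and 4.75 to 4.89 in FC, and had 16 positive interactions of 20 (median 0.41). Apart from Cd68 no marker in these lists passed the interaction test, and their part in the results was not tested. Eln, for elastin, was the 1 gene of 29 collagens and matrix proteins that passed (-1.09 ± 0.24, adjusted p = 0.0268, lost in 7 of the 12 fits without 1 array), while the list had median changes of -0.86 in soleus and -0.29 in EDL. The dimmer probe set of Eln did not pass (0.10, adjusted p = 0.856). Over all genes 1.19% had a lower interaction at an adjusted p under 0.05.

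Other named genes also had a lower interaction. Cyfip2, a member of the WAVE actin regulatory complex, had the lowest adjusted p of the genes named here: 6.01, 6.65 and 6.51 in BF soleus, against 9.12, 9.20 and 9.27 in FC soleus, and 5.47, 5.0 and 5.29 in BF EDL, against 5.60, 5.28 and 5.05 in FC EDL (interaction -2.74 ± 0.23, adjusted p = 2.9e-05). Its FC soleus arrays agreed within 0.15, and BF soleus fell by 2.80 on the log2 scale. Fzd9, a Wnt receptor, fell by 2.77 in BF soleus and by 0.72 in BF EDL, so both muscles changed in one direction by different amounts (interaction -2.05 ± 0.20, adjusted p = 8.33e-05). Kcnma1, the calcium-activated potassium channel, fell by 1.93 in BF soleus and by 0.80 in BF EDL (interaction -1.13 ± 0.25, adjusted p = 0.0249, lost in 6 of 12 fits without 1 array). Chrna1, a subunit of the acetylcholine receptor, fell by 0.96 in BF soleus and had a value of 0.39 in EDL (interaction -1.36 ± 0.19, adjusted p = 0.00199). Ndrg4, Lgi1, Dusp18, Fxyd6 and Abhd18 had interactions between -2.45 and -2.04, and Lgi1 lost the call without FC soleus replicate 2 or 3.

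Genes that changed in EDL made up a smaller group, and 15 genes had an adjusted p under 0.05 in both muscles with opposite signs. Nr4a1, an immediate early nuclear receptor, was at 10.15, 10.38 and 10.07 in BF soleus, against 8.84, 9.30 and 9.33 in FC soleus, and at 10.19, 10.02 and 9.25 in BF EDL, against 10.52, 10.94 and 10.84 in FC EDL. It rose in BF soleus (1.04 ± 0.23) and fell in BF EDL (-0.94 ± 0.23) without overlap in either, giving an interaction of 1.99 ± 0.32 (adjusted p = 0.00533). Slc25a30, a mitochondrial carrier, was at 7.63, 7.06 and 8.02 in BF soleus, against 6.84, 6.84 and 6.79 in FC soleus, and at 7.04, 7.73 and 7.24 in BF EDL, against 8.75, 9.10 and 8.39 in FC EDL (interaction 2.15 ± 0.32, adjusted p = 0.00379). Its probe set next in brightness passed (2.04, adjusted p = 0.0138), and the dimmer ones did not (0.94, 0.59 and -0.01). Nup210, a nuclear pore protein needed for muscle differentiation in mouse cells, rose by 1.36 in BF soleus and fell by 0.75 in BF EDL (adjusted p = 0.000238). Pank1, for the first step of coenzyme A synthesis, did the reverse, -0.70 in soleus and 1.09 in EDL (adjusted p = 0.0118), as did Bnip3, a mitophagy receptor, -0.31 and 0.46 (adjusted p = 0.00676). Tdrp, Cited4 and 1700001O22Rik also changed in opposite directions, higher in BF soleus and lower in BF EDL. The dimmer probe set of Cited4 had an interaction of 0.10 and did not pass (adjusted p = 0.84).

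Among the called genes that passed the 2-fold threshold in EDL and not in soleus, Six2, a homeobox factor, was at 7.34, 6.88 and 6.98 in BF EDL, against 8.74, 8.78 and 8.05 in FC EDL. Its soleus arrays were at 6.85, 6.35 and 6.89 in BF and 5.86, 6.12 and 6.46 in FC, where the groups overlapped. The interaction was 2.01 ± 0.30 (adjusted p = 0.00379), and Rasd2 and Osbpl6 had the same pattern with EDL changes of -1.73 and -1.18. The interaction of Rasd2 (adjusted p = 0.0222) was lost in 6 of the 12 fits without 1 array, with an adjusted p up to 0.0698. Plin5, which coats lipid droplets next to mitochondria, rose by 1.32 in BF EDL with -0.43 in soleus (interaction -1.74 ± 0.39, adjusted p = 0.0259, kept in 5 of 12 fits without 1 array). Aurka, the mitotic kinase, fell by 1.20 in BF EDL (interaction adjusted p = 0.0205, lost in 5 of 12 such fits).

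Genes that moved alike numbered 224, of which 58 were higher (0.468%) and 166 lower (1.34%) in both muscles, and 8 exceeded 2-fold in both. For 84.2% of all genes the interval of the interaction lay inside a 2-fold difference, whether or not they changed. An adjusted p under 0.05 in both muscles was reached by 283 genes (2.28%), of which 268 had the same sign, and for 44 of these the interval reached outside a 2-fold difference. The 2 muscle changes come from separate arrays, but the labels do not say whether from separate mice, so the changes need not be independent. The count of 224 was 63 without FC EDL replicate 2, 83 without FC EDL replicate 3, 104 without BF EDL replicate 3, 128 without BF EDL replicate 1 and 141 without FC soleus replicate 2.

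Net1, an exchange factor for RhoA, had the highest mean change of the genes that moved alike. It was at 8.05, 7.46 and 8.41 in BF soleus, against 5.88, 5.76 and 6.21 in FC soleus, and at 8.90, 9.14 and 8.51 in BF EDL, against 7.05, 6.98 and 6.2 in FC EDL. The groups were apart in both muscles, with a mean change of 2.07 and an interaction of -0.08 (95% interval -0.90 to 0.74). Of 26 measured genes known to respond to glucocorticoids, 4 moved alike, all higher, against 58 of 12393 genes (0.468%). The 4 were Sesn1, also a p53 target that restrains mTORC1, Fkbp5, a co-chaperone of the receptor, Cebpd, a transcription factor, and Pdk4, which blocks pyruvate entry into the tricarboxylic acid cycle. The dimmer probe set of Cebpd had a mean change of 0.28, that of Fkbp5 0.95, and those of Sesn1 1.23 and 1.88. Sesn1 was at 10.07, 10.09 and 9.93 in BF soleus, against 8.72, 8.78 and 8.91 in FC soleus, and at 10.24, 10.13 and 10.57 in BF EDL, against 8.27, 8.63 and 8.75 in FC EDL. It rose in both (interaction -0.54, 95% interval -0.96 to -0.11), an interval that leaves out 0 although the adjusted p was 0.203. Fkbp5 was at 10.92, 9.97 and 11.09 in BF soleus, against 9.26, 9.72 and 9.92 in FC soleus, and at 11.26, 11.12 and 11.12 in BF EDL, against 9.66, 10.03 and 10.40 in FC EDL, so the lowest BF soleus array was just above the highest FC soleus array. Of the 26, 12 rose and 3 fell in BF soleus, against 9.02% and 16% of all genes. In BF EDL 8 rose and none fell, against 1.02% and 2.52%. The list's median changes were 0.39 in soleus and 0.38 in EDL.

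Clock genes also moved in both muscles. Per2, which represses the clock's own activators, was at 6.46, 6.58 and 6.21 in BF soleus, against 7.22, 7.57 and 7.65 in FC soleus, and at 6.64, 6.48 and 6.24 in BF EDL, against 7.39, 8.02 and 7.51 in FC EDL. It fell in both muscles by similar amounts (interaction 0.12, 95% interval -0.57 to 0.82). The dimmer probe set of Per2 had a mean change of -0.19. Hlf, a clock output factor, had a mean change of -1.06 (-0.73 in its dimmer probe set), and Clock rose in both. Thus 3 of 20 measured clock genes moved alike, against 224 of 12393 genes, and none passed the interaction test. Dbp, a further output factor, fell by 3.81 in BF soleus and by 2.73 in BF EDL, and Arntl, the partner of Clock, rose by 2.56 and 1.29. The intervals of their interactions (-2.62 to 0.45 and 0.28 to 2.25) reach beyond a 2-fold difference, so they were not counted as alike. Time of day at dissection is not given in the labels, and its part was not tested.

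**Figure D4:**
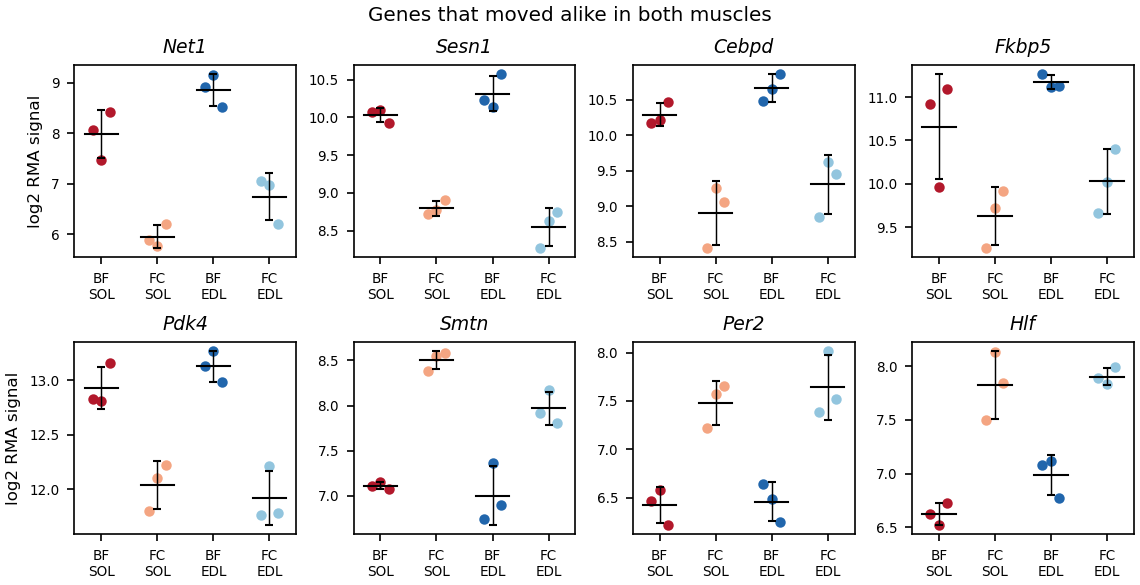
Log2 RMA signal of 8 genes that moved alike in each of the 12 arrays (points), with the mean (line) and SD (bars) of the 3 arrays per group in soleus (SOL) and EDL. BF lies above FC in both muscles for Net1, Sesn1, Cebpd, Fkbp5 and Pdk4, and below FC in both for Smtn, Per2 and Hlf.

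Of 9 measured growth arrest and snoRNA host genes, 6 rose in BF soleus and 5 in BF EDL, against 9.02% and 1.02% of all genes, and none fell. Snhg5 was at 8.72, 8.81 and 8.93 in BF soleus, against 6.65, 6.86 and 7.0 in FC soleus, and 8.81, 8.73 and 8.98 in BF EDL against 7.62, 7.79 and 7.62 in FC EDL. No groups overlapped, and the interaction of 0.82 ± 0.20 was near the threshold (adjusted p = 0.0428, kept in 2 of 12 fits without 1 array). Gas5 moved alike, by 1.12 in soleus and 0.90 in EDL. Snhg1 rose by 1.92 in BF soleus and 1.10 in BF EDL. Its brightest probe set did not pass the interaction test (0.82 ± 0.30, adjusted p = 0.18), while 2 others of nearly equal brightness did, at 1.18 and 1.15 (adjusted p = 0.0139 and 0.0156). Cdkn1a, the p21 inhibitor of the cell cycle, rose by 2.18 in BF soleus and 2.28 in BF EDL (interaction -0.10, 95% interval -1.11 to 0.92, just past a 2-fold difference). Myf6, a myogenic factor of mature fibres, rose by 1.85 and 1.22, and Ung, which removes uracil from DNA, fell by 1.80 and by 1.31. The 6 probe sets of Synj2, a phosphoinositide phosphatase, disagreed: the brightest had changes of 0.18 in soleus and 0.36 in EDL, which did not pass in either muscle, and a slightly dimmer one 1.38 in soleus and 1.3 in EDL, with an interaction of 0.08. Smtn, which binds actin in smooth muscle, Evc, Asah2 and Mid1ip1 were among the 6 largest falls of the genes that moved alike, between -1.18 and -1.06 in mean change, and Myo5a and Serpina3n and the heat shock protein Hspb1 among the 8 largest rises of that set, at 1.05 to 1.10. The dimmer probe sets of Evc and Asah2 did not show the fall (mean change 0.015 and -0.095), while those of Myo5a and Hspb1 rose (2.14 and 1.29).

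The BG arrays, which do not enter the contrast, show how the called genes differ between the muscles on the ground. Among all genes tested, 1028 were higher (8.3%) and 1079 lower (8.71%) in BG soleus than in BG EDL at an adjusted p under 0.05. Of the 84 genes with a higher interaction in soleus, 69 were lower in BG soleus than in BG EDL, 46 of them at an adjusted p under 0.05, and the median difference was -0.65. Of the 85 genes with a lower interaction, 82 were higher in BG soleus, 63 of them at an adjusted p under 0.05, with a median of 1.02. Over all genes 58.3% were lower and 41.7% higher in BG soleus at any p, and the median was -0.06. Hbegf, Myc and Adpgk were among the called genes with little difference between the BG muscles (-0.22, -0.13 and -0.05), and Cd68 had a value of 0.75.

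**Figure D5:**
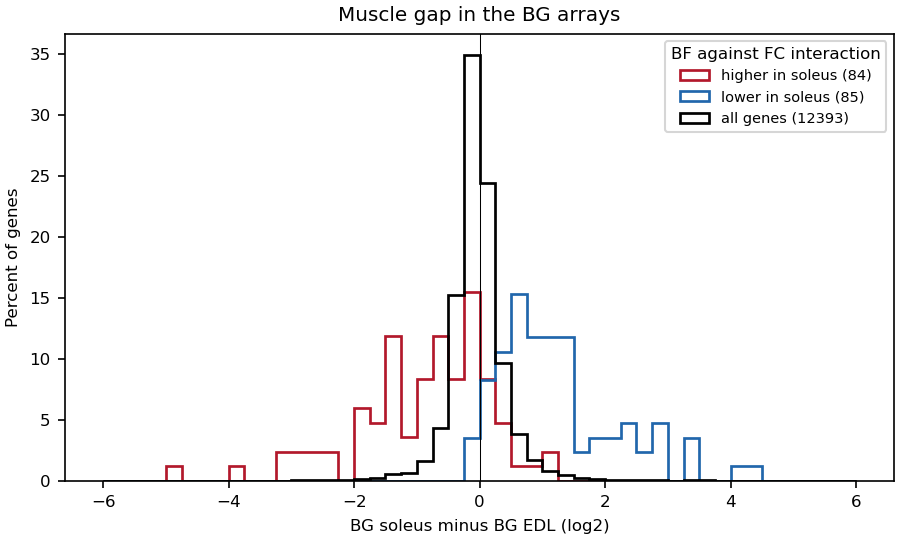
Difference between BG soleus and BG EDL (horizontal axis, log2) as percent of genes (vertical axis) for the 84 genes with a higher interaction in soleus, the 85 with a lower one and all 12393 genes. The median is -0.65 for the first set, 1.02 for the second and -0.06 for all genes.

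With BG in place of FC as the control, 370 genes were called in the interaction (2.99%). Both results share the BF arrays, so the ground difference was tested directly: the change of FC against BG in soleus minus that in EDL was called for 0 of 12393 genes (0%, limma), with 1976 genes at an unadjusted p under 0.05, 0 genes with ordinary contrasts and 111 with array weights. Sln had a ground difference of 2.20 (unadjusted p = 0.00144), and its interaction with BG as the control was -1.68 (adjusted p = 0.0756), against -3.88 with FC. Psmd8, a proteasome subunit, had 1.23 ± 0.20 with FC (adjusted p = 0.00639), 0.15 with BG, and a ground difference of -1.08 (unadjusted p = 6.12e-05). Casq2, Pln, Cyfip2, Actn3 and Cd68 had values of -1.98, -2.41, -2.22, 4.44 and 3.06 with BG, all at an adjusted p under 0.05.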

How the data were processed

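RNA of 18 mouse muscles was hybridised to Affymetrix Mouse Genome 430A 2.0 arrays. Per the deposited table and the methods, the authors made log2 RMA values in Partek Genomics Suite 6.6 over all 18 arrays (background correction, quantile normalization, median polish). Quantile normalization gives the arrays equal probe distributions, and the number of arrays limits the precision. Each of the 12393 genes was read through the brightest of its probe sets, of 22626 tested, leaving out probe sets with no gene or several. One limma 3.58.1 model (R 4.3.3) held 6 group means over 18 arrays, and p-values were adjusted by Benjamini-Hochberg over all probe sets tested. Standard errors are moderated. Named genes were the 12 highest and 12 lowest interactions without overlap in at least 1 muscle, the 8 highest and 6 lowest shared changes, up to 3 per list that passed, up to 8 with opposite signs, up to 8 changed in EDL, and a fixed set. Genes from the lists were added after their values were seen where a count is small (Homer2, Klf6, Cd36, Acadvl, Hadh) or where set beside a count (Egr1, Fos, Gas5, Clock). The members and lists were chosen with earlier results of these data known. Replicate numbers were not used to pair the muscles, since the labels do not say that they do. The model was tested on simulated data, and other settings stand in the closing section. Promoter windows come from RefSeq.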

Additional observations from a re-analysis of the deposited data

Results flagged for a closer look

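The BF to FC change differed between soleus and EDL, by the test of the interaction itself, for 57 of the named genes (limma, adjusted p under 0.05). Values are interactions on the log2 scale, soleus minus EDL. The highest were Actn3 at 3.68, Hbegf at 3.58, Cd68 at 3.40, Gm13889 at 3.30, Cbr2 at 2.65, Rasd2 at 2.38, Myc at 2.35 and Dusp10 at 2.33. Next came Tdrp at 2.29, Azin1 at 2.29, Tlcd4 at 2.25, Pvalb at 2.20, Gpd1 at 2.16, Slc25a30 at 2.15, Nup210 at 2.10 and 1700001O22Rik at 2.07. Then followed Adpgk at 2.05, Six2 at 2.01, Nr4a1 at 1.99, Cited4 at 1.91, Osbpl6 at 1.70, Fosl1 at 1.64, Hspb8 at 1.63 and Phkg1 at 1.62. The smallest positive values were Aurka at 1.54, Pdlim3 at 1.48, Nrip1 at 1.32, Psmd8 at 1.23, Myoz1 at 1.09, Vcl at 1.03, Snhg5 at 0.82 and Mef2a at 0.66. The lowest were Sln at -3.88, Myh3 at -3.0, Cyfip2 at -2.74, Ndrg4 at -2.45, Lgi1 at -2.32, Dusp18 at -2.25, Pln at -2.17 and Casq2 at -2.10. Above these were Fxyd6 at -2.10, Fzd9 at -2.05, Abhd18 at -2.04, Idh2 at -1.98, Pank1 at -1.78, Plin5 at -1.74, Ppara at -1.60 and Chrna1 at -1.36. Further values below 0 were Fabp3 at -1.28, Acaa2 at -1.27, Cpt2 at -1.26, Mvd at -1.22, 6430548M08Rik at -1.16, Kcnma1 at -1.13, Eln at -1.09, Bnip3 at -0.77 and Ndufv1 at -0.62. Not all of these were stable. Of the 12 fits without 1 array, Mef2a and 6430548M08Rik passed in 5, Tlcd4 in 3, Phkg1 in 7, Gpd1 in 8 and Vcl in 9. The dimmer probe sets of Mef2a did not pass (-0.04 to 0.45, adjusted p 0.154 to 0.962). Nor did that of 6430548M08Rik (-0.59, adjusted p = 0.305). Groups of 3 arrays were not searched for single arrays that stand apart.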

How the results depend on the processing

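Among the named genes, no interaction that passed the test changed sign under any setting run. Among those that did not pass, some changed sign when 1 array was left out, such as Myh7 (-0.72 to 1.79), Fkbp5 (-0.33 to 0.24) and Cdkn1a (-0.32 to 0.16). With only the 12 BF and FC arrays in the fit, 121 genes were called in the interaction (54 higher, 114 shared with the 169) and 135 moved alike. Ordinary contrasts without moderation gave 69 (32 higher, 37 lower), 38 in EDL and 145 alike, and array quality weights gave 404 (245 higher, 159 lower), 792 alike and 111 in the ground difference. The ground difference, with 0 genes in the fit reported, had 1 after cyclic loess, 5 after median centring and 3 with the random block. Counting any probe set gave 103 in EDL and 384 alike. With no fold threshold there were 147 lower interactions, 3105 genes in soleus and 438 in EDL, and at 1.5-fold 146, 1672 and 284. With a 1.5-fold margin 106 moved alike. Leaving out 1 array gave 99 to 339 interactions (44 to 226 higher, 55 to 113 lower), 444 to 617 in soleus, 45 to 75 in EDL, 63 to 284 alike and 0 to 17 in the ground difference. The higher count was 51 without FC soleus replicate 2, 44 without BF EDL replicate 1, 135 without BF soleus replicate 2 and 226 without BF soleus replicate 3, and the lower count was 55 without BF EDL replicate 1. The ground count was 17 without FC soleus replicate 3, 7 without BF soleus replicate 2 or BF EDL replicate 2, 2 without FC EDL replicate 3, and 1 without BF soleus replicate 1 or 3 or FC soleus replicate 2. The causes were not tested. Values of the named genes were compared with the fit reported. An interaction that had passed was counted as kept when it passed again with the same sign. An interaction that had not passed was counted as kept when it shifted by less than its SE. By these rules 1630 values were kept, 164 that had passed fell short of the threshold, and 4 that had not passed shifted by more. The 293 values of shared changes kept their sign and an adjusted p under 0.05.

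Same-numbered soleus and EDL arrays correlated at -0.05 to 0.37 in their deviations, and 6 of 9 were closest to their own number. The labels do not say that the numbers pair the muscles, so the fit reported held no block, and whether they do was not tested. With a replicate block of condition and number, 219 genes were called (121 higher, 98 lower, 158 shared with the 169), and with the block as a random effect 215 (113 higher, 102 lower). The count of fatty acid genes lower was 12 and 10 with these blocks.

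The median interaction of all genes was -0.02 as reported, 0.01 after cyclic loess and 0.00 after median centring, and the medians of the calcium, fast, slow, fatty acid, glycolysis and immediate early lists kept their sign. Of the called genes 83 had other probe sets, 13 of them with one of opposite sign and 34 with another called the same way. With 3 arrays a group, genes with spread values in one group, such as Myh4 and Myh7, cannot be resolved here.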
